A study of Mus musculus with 26 samples.

Results

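BAF complexes (mammalian SWI/SNF) use ATP to slide and evict nucleosomes, and several of their positions can be filled by any of 2 or more paralogous subunits. The genes described here are 10 such subunits, arranged as 5 pairs: the ATPases Smarca2 and Smarca4, the scaffold subunits Smarcc2 and Smarcc1, the adaptor subunits Smarcd3 and Smarcd1, the actin-related subunits Actl6b and Actl6a, and the double PHD finger subunits Dpf1 and Dpf2. They were picked by gene symbol and not by a cut on measured values, though earlier results of these data were known. They make up 10 of the 55471 genes in the count table. As background, the form of the complex in embryonic stem cells is known for Smarca4 with Smarcc1, Smarcd1 and Actl6a. Neurons are known to exchange Actl6a for Actl6b and to take up Dpf1, and Smarcd3 is known from heart and skeletal muscle. The values are counts per gene, so they show the balance between paralogous genes and not between transcripts of 1 gene.

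All cells were KH2, an established line of mouse embryonic stem cells, collected during differentiation with retinoic acid. The 9 groups were a NAP1L1 alpha knock-out (alphaKO, library names beginning with C6), a NAP1L1 knock-out (fullKO, library names beginning with C20) and wild type (WT), each on days 0, 2 and 4. NAP1L1 is a histone chaperone. There were 3 libraries in each group and 2 in fullKO at day 0, and the labels do not say whether each knockout genotype is 1 clone or whether replicates were separate cultures. The p-values below therefore reflect only how these libraries varied, which may be technical variation.

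Libraries held 13537267 to 20569706 counts. Nap1l1, the targeted gene, was measured at 569 to 621 CPM (counts per 1000000, scaled for library size) in alphaKO, 397 to 401 CPM in fullKO and 997 to 1068 CPM in WT at day 0, and every knockout library lay below every WT library of its day. The summed level of 8 pluripotency markers at day 0 was 5383 to 5545 CPM in alphaKO, 5695 to 5856 CPM in fullKO and 2964 to 3063 CPM in WT. By day 4 that sum was 548 to 585 CPM in alphaKO, 772 to 789 CPM in fullKO and 116 to 129 CPM in WT. The sum of 10 fibroblast markers at day 0 was 1216 to 1881 CPM in alphaKO, 249 to 374 CPM in fullKO and 2262 to 3011 CPM in WT. In such bulk samples, fewer cells of a type and less RNA per cell cannot be told apart.

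Promoter windows of 300 bases (250 before to 50 after the RefSeq start, GRCm38.p6) were available for all 10 subunit genes. Those of the Smarcd and Actl6 pairs are printed because Smarcd3 differed from WT in opposite directions on different days, and because Actl6b was the only subunit near the detection limit. Capitals mark CCAAT, the GC box GGGCGG, the retinoid receptor core site AGGTCA or the left part of the RE1 element, TTCAGCACC, on either strand. Where 2 GC boxes overlap, in Smarcd3 and Actl6b, the capitals run on.
Smarcd3: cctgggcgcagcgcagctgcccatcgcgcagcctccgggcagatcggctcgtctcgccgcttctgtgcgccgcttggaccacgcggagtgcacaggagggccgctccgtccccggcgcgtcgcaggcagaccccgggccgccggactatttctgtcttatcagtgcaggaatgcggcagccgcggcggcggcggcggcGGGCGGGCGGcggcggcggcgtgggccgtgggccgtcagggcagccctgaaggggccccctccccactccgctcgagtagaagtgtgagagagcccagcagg
Smarcd1: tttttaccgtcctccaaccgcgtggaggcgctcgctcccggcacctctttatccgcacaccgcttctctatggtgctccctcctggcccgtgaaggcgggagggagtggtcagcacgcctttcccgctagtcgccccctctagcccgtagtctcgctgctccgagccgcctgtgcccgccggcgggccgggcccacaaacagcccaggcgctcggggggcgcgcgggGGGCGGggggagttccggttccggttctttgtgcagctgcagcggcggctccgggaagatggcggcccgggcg
Actl6b: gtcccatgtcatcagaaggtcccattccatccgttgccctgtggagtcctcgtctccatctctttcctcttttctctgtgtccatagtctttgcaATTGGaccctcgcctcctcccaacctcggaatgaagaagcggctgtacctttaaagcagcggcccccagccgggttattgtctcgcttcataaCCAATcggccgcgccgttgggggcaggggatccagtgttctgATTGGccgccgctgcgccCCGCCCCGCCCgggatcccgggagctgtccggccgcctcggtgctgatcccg
Actl6a: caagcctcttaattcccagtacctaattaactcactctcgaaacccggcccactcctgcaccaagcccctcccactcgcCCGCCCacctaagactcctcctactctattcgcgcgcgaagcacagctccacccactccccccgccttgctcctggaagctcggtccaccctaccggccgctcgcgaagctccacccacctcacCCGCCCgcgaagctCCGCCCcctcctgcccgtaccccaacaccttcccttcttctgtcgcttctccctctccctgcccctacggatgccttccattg
The windows lie at chr5:24601953-24602252 on the minus strand for Smarcd3, chr15:99702037-99702336 on the plus strand for Smarcd1, chr5:137553296-137553595 on the plus strand for Actl6b and chr3:32708296-32708595 on the plus strand for Actl6a. The windows of Smarcd3 and Actl6a lie inside the wider gene models of GENCODE M21, so each covers 1 of several possible starts. All 10 windows were rich in CpG, with 20 to 48 CpG dinucleotides against a median of 7 over 32851 RefSeq windows. A GC box was found in 9 of 10, all but Dpf2, and in 35.7% of all windows. CCAAT occurred in 3 of 10 (3 times in Actl6b, 2 times in Dpf1 and 1 time in Dpf2) and in 37.4% of all windows. AGGTCA was found in 0 of 10 windows and in 16.3% of all windows, and TTCAGCACC in 0 of 10 and in 0.371% of all.

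In WT cells the largest change of the set was a 5.58-fold rise of Smarca2 at day 4, while Smarca4 kept nearly the same level. Smarcc2 and Smarcd3 rose while their partners Smarcc1 and Smarcd1 fell, Actl6a fell to 0.256 of its level with no detectable rise of Actl6b, and Dpf1 fell. Of the 10 genes, 9 passed the filter on low counts. In edgeR's quasi-likelihood test with Benjamini-Hochberg adjustment over 18412 genes, with genes called at an adjusted p under 0.05, 2 of the 9 were higher and 6 lower in WT at day 2 than at day 0. Over all genes, 36.7% were higher and 34.0% lower. At day 4, 3 of the 9 were higher and 5 lower than at day 0, against 40.7% and 36.7% of all genes. The median log2 fold change of the 9 at day 4 was -0.23, against 0.10 over all genes. Leaving out any 1 library gave 6 to 8 called at day 2 and 8 to 9 at day 4.

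**Figure D1:**
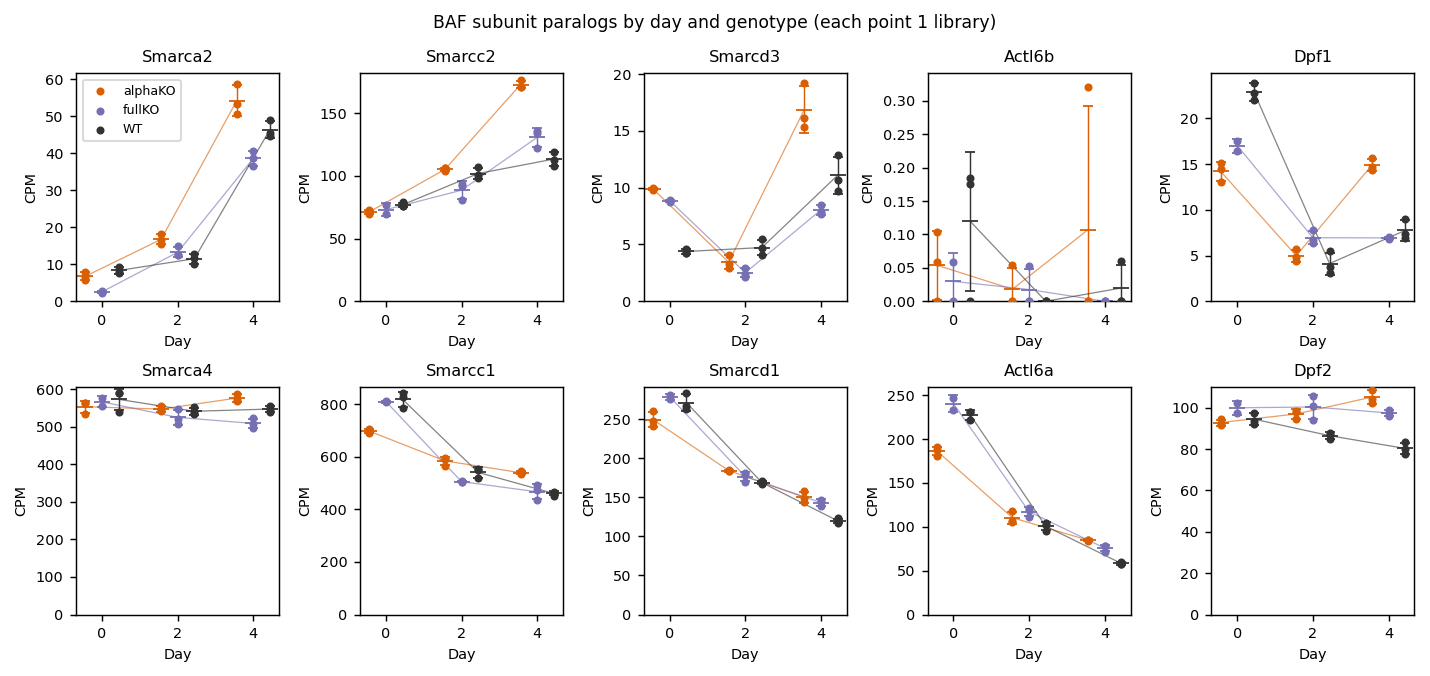
Level of each of the 10 subunit genes in CPM (vertical axes, each starting at 0) on days 0, 2 and 4 in alphaKO, fullKO and WT. Each point is 1 library, bars are mean ± SD and lines join group means; Smarca2 climbs in all genotypes, Smarcc1, Smarcd1 and Actl6a decline, and Actl6b never exceeds 5 counts in a library.

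Smarca2 and Smarca4 encode the alternative ATPases of the complex, and nearly all of the movement was on the Smarca2 side. At day 0 Smarca2 had 6.51, 5.87 and 7.91 CPM in alphaKO, 2.80 and 2.31 CPM in fullKO, and 7.65, 9.29 and 7.99 CPM in WT. Both fullKO libraries lay below every other library of that day, and Smarca2 was lower than in WT (log2 -1.69 ± 0.18, SE, edgeR adjusted p = 1.31e-10). In alphaKO it was -0.29 ± 0.13 against WT (edgeR adjusted p = 0.0698), with overlapping groups, and without alphaKO replicate 3 it was -0.42 with an adjusted p of 0.0163. All 10 fibroblast markers were also lower in fullKO than in WT at day 0, against 17.7% of all genes, and none was at 0 in either group. Their median log2 fold change was -3.15, against -0.01 over all genes. All 10 were lower in alphaKO than in WT too, against 20.9% of all genes, with a median of -0.76 against -0.03 (summed levels above). The part of cells with these markers in the Smarca2 values was not tested.

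At day 2 Smarca2 stood at 15.4, 18.1 and 16.7 CPM in alphaKO, 12.4, 12.5 and 14.8 CPM in fullKO and 12.8, 10.1 and 11.6 CPM in WT. By day 4 the level was 50.5, 53.3 and 58.8 CPM in alphaKO, 38.7, 36.5 and 40.7 CPM in fullKO and 45.5, 44.7 and 48.9 CPM in WT. The alphaKO libraries were thus the highest and did not overlap WT on either day, while fullKO overlapped WT at day 2 and lay wholly below it at day 4. The rise in WT was 0.47 ± 0.12 on the log2 scale at day 2 and 2.48 ± 0.10 at day 4 (edgeR adjusted p = 0.000565 and 9.16e-26). Against WT, Smarca2 in alphaKO was higher by 0.54 ± 0.11 at day 2 (edgeR adjusted p = 5.22e-05) and by 0.22 ± 0.08 at day 4 (adjusted p = 0.0213). The day 4 call was lost without WT replicate 1 (0.21), WT replicate 2 (0.20) or alphaKO replicate 3 (0.16). In fullKO it was lower at day 4 (log2 -0.27 ± 0.08, edgeR adjusted p = 0.00759), a call lost without WT replicate 3 (-0.22), and at day 2 the value was 0.20 ± 0.11 (adjusted p = 0.13).

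The change of Smarca2 over days was larger in both knockouts than in WT. The difference in the log2 change to day 4 was 1.43 ± 0.20 in fullKO (edgeR adjusted p = 1.68e-07) and 0.51 ± 0.15 in alphaKO (adjusted p = 0.00506). At day 2 the summed fibroblast markers were 270 to 333 in alphaKO, 134 to 143 in fullKO and 718.5 to 782.6 CPM in WT. At day 4 they ran to 764 to 864 CPM in alphaKO, 627 to 671 CPM in fullKO and 1512 to 1598 CPM in WT. Between days 0 and 4 the sum thus fell in alphaKO and WT and rose in fullKO, while Smarca2 rose in all genotypes. The part of these markers' cells in the change of Smarca2 was not tested. Smarca4, by comparison, ranged from 497 to 589.5 CPM over all 26 libraries. In WT it differed from day 0 by -0.08 ± 0.04 at day 2 (edgeR adjusted p = 0.0476) and by -0.07 ± 0.04 at day 4 (adjusted p = 0.102). The day 2 call was lost without WT day 0 replicate 1 (-0.07) or 2 (-0.07) and without WT day 2 replicate 2 (-0.08) or 3 (-0.07). It was also lost in edgeR without the filter on low counts (-0.08, adjusted p = 0.115), with a mean of at least 1 CPM (-0.07, adjusted p = 0.0954) and with the replicate number as a block (-0.08, adjusted p = 0.0544). The day 4 value was called with another scaling (-0.10 by relative log expression or DESeq2). In fullKO at day 4 Smarca4 was lower (log2 -0.10 ± 0.04, edgeR adjusted p = 0.0178), a call lost without WT replicate 3 (-0.10) or fullKO replicate 3 (-0.09).

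**Figure D2:**
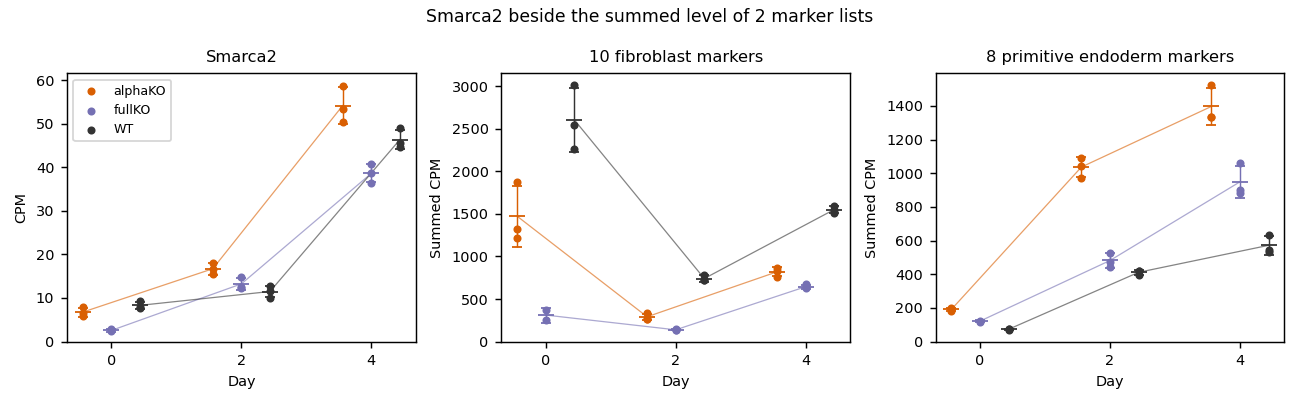
Smarca2 in CPM (left) beside the summed CPM of 10 fibroblast markers (middle) and 8 primitive endoderm markers (right) on days 0, 2 and 4; points are libraries in alphaKO, fullKO and WT, bars mean ± SD. At day 0 the fullKO libraries are lowest for both Smarca2 (2.31 and 2.80 CPM) and the fibroblast sum (249 and 374 CPM). The primitive endoderm sum at day 0 is higher in fullKO (118.1 and 124.5 CPM) than in WT (68.74 to 75.15 CPM). Of its 8 markers, 3 were higher and 2 lower in fullKO, against 16.2% and 17.7% of all genes.

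Smarcc2 and Smarcc1 encode the paired scaffold subunits around which the complex is built, and they moved in opposite directions in WT. Smarcc2 at day 0 had 71.6, 69.4 and 72.6 CPM in alphaKO, 76.6 and 69.4 CPM in fullKO, and 76.2, 78.9 and 75.6 CPM in WT. On day 4 its libraries read 171, 176 and 171 CPM in alphaKO, 136, 134 and 122 CPM in fullKO, and 119, 113 and 108 CPM in WT. The 3 genotypes did not overlap at day 4, with alphaKO highest and WT lowest. The rise in WT was 0.56 ± 0.05 on the log2 scale (edgeR adjusted p = 8.66e-13). Against WT at day 4 Smarcc2 was higher by 0.61 ± 0.05 in alphaKO (edgeR adjusted p = 4.93e-14) and by 0.21 ± 0.05 in fullKO (adjusted p = 0.000804). At day 2, with 104 to 106 CPM in alphaKO, 80.4 to 93.7 CPM in fullKO and 97.9 to 107 CPM in WT, Smarcc2 was lower in fullKO (log2 -0.20 ± 0.05, edgeR adjusted p = 0.00153).

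Smarcc1 at day 0 had 692, 706 and 696 CPM in alphaKO, 813 and 808 CPM in fullKO, and 841, 827 and 787 CPM in WT. On day 4 the values were 538, 547 and 535 CPM in alphaKO, 491, 474 and 435 CPM in fullKO, and 452, 463 and 467 CPM in WT. The alphaKO libraries were the lowest at day 0 and the highest at day 4, and overlapped no other group on either day. In WT Smarcc1 fell by 0.83 ± 0.04 on the log2 scale by day 4 (edgeR adjusted p = 5.11e-24). Against WT it was lower in alphaKO at day 0 (log2 -0.23 ± 0.04, edgeR adjusted p = 2.14e-06) and higher by 0.23 ± 0.04 at day 4 (adjusted p = 1.68e-06). In fullKO the differences from WT were -0.01 ± 0.04 at day 0 and 0.02 ± 0.04 at day 4 (edgeR adjusted p = 0.834 and 0.707). Smarcc1 shares exon bases with Dhx30 on the other strand, and how strand was handled in counting is not given in the sources used here. Dhx30 differed from WT by -0.21 in alphaKO at day 0 and by 0.07 at day 4 on the log2 scale, and averaged 183 ± 4.06, 181 ± 2.05 and 211 ± 8.46 CPM at day 0 in alphaKO, fullKO and WT (SD).

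Smarcd3 and Smarcd1 encode adaptor subunits through which transcription factors contact the complex. Smarcd3 was higher than WT in both knockouts at day 0 and lower in both at day 2. At day 0 it had 9.88, 9.98 and 9.82 CPM in alphaKO, 8.92 and 8.78 CPM in fullKO, and 4.61, 4.24 and 4.29 CPM in WT. At day 2 it had 4.11, 3.29 and 2.91 CPM in alphaKO, 2.94, 2.16 and 2.42 CPM in fullKO, and 5.45, 4.06 and 4.68 CPM in WT. By day 4 Smarcd3 had 15.3, 16.1 and 19.2 CPM in alphaKO, 8.52, 7.90 and 7.73 CPM in fullKO, and 12.9, 10.7 and 9.71 CPM in WT. The knockout libraries thus lay above all WT libraries at day 0, and at day 2 fullKO lay wholly below WT while alphaKO overlapped it by 1 library. At day 4 alphaKO lay above and fullKO below every WT library.

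At day 0 Smarcd3 was 2.25-fold higher in alphaKO (log2 1.17 ± 0.15, edgeR adjusted p = 9.44e-09) and 2.02-fold higher in fullKO (log2 1.01 ± 0.17, adjusted p = 2.88e-06). At day 2 the log2 differences were -0.92 ± 0.18 in fullKO (edgeR adjusted p = 2.21e-05) and -0.47 ± 0.17 in alphaKO (adjusted p = 0.0235). The alphaKO call at day 2 was lost without WT replicate 1 (-0.35) or alphaKO replicates 2 (-0.44) or 3 (-0.36), and without the filter on low counts (-0.47, adjusted p = 0.0638). At day 4 the differences were 0.61 ± 0.13 in alphaKO (edgeR adjusted p = 5.74e-05) and -0.46 ± 0.13 in fullKO (adjusted p = 0.00408), the second of them lost without WT replicate 1 (-0.34). In WT Smarcd3 was 0.11 ± 0.17 from its day 0 value at day 2 (edgeR adjusted p = 0.55) and rose by 1.33 ± 0.15 at day 4 (adjusted p = 5.11e-11). The change to day 2 differed from that of WT by -1.64 ± 0.23 in alphaKO (edgeR adjusted p = 1.04e-07) and by -1.93 ± 0.24 in fullKO (adjusted p = 1.46e-08).

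The summed level of 11 heart and skeletal muscle markers at day 0 was 10.9 to 12.3 CPM in alphaKO, 13.9 to 14.2 CPM in fullKO and 13.8 to 16.8 CPM in WT. At day 2 the sum was 30.3 to 31.0 CPM in alphaKO, 37.1 to 39.3 CPM in fullKO and 41.3 to 42.0 CPM in WT. At day 4 it was 26.6 to 35.4 CPM in alphaKO, 46.1 to 53.6 CPM in fullKO and 80.7 to 83.9 CPM in WT. The skeletal muscle genes Myod1, Myog and Ckm averaged under 1 CPM in all 9 groups, and the part of muscle cells in the Smarcd3 values was not tested. Smarcd3 also overlaps exon bases of Chpf2 on the other strand, which averaged 8.97 ± 0.590 CPM in alphaKO, 4.17 ± 1.60 CPM in fullKO and 10.5 ± 1.41 CPM in WT at day 0 (SD). At day 2 Chpf2 averaged 14.1 ± 1.40 CPM in alphaKO, 9.86 ± 0.321 CPM in fullKO and 14.4 ± 1.39 CPM in WT, and at day 4 31.5 ± 1.49, 29.4 ± 2.68 and 40.01 ± 2.56 CPM in those groups. The mean of Chpf2 was lowest in fullKO on all 3 days, and that of Smarcd3 at days 2 and 4, while at day 0 Smarcd3 was lowest in WT. In WT Chpf2 rose with Smarcd3 at day 4 (log2 1.94 ± 0.11, edgeR adjusted p = 7.64e-21), and the part of reads from the other strand was not tested. Smarcd1 had 241 to 260 CPM in alphaKO, 276 to 282 CPM in fullKO and 264 to 284 CPM in WT at day 0. At day 4 it had 144 to 158 CPM in alphaKO, 139 to 147 CPM in fullKO and 118 to 123 CPM in WT. In WT it fell by 1.18 ± 0.04 on the log2 scale (edgeR adjusted p = 5.91e-28), and at day 4 it was higher than WT by 0.32 ± 0.04 in alphaKO and by 0.25 ± 0.04 in fullKO (edgeR adjusted p = 1.93e-08 and 2.72e-06). At day 0 it was lower in alphaKO (log2 -0.12 ± 0.04, edgeR adjusted p = 0.0142), a call lost without WT replicate 1 (-0.09) or alphaKO replicate 3 (-0.10), and when only the compared groups were fitted (-0.10, adjusted p = 0.118).

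Actl6a and Actl6b encode the actin-related subunit of dividing cells and its neuronal counterpart. Actl6b stayed at or near the detection limit throughout, with 18 counts in all 26 libraries together, 0 in 17 of them and at most 5 in any. Its summed counts at days 0, 2 and 4 were 3, 1 and 5 in alphaKO, 1, 1 and 0 in fullKO, and 6, 0 and 1 in WT. A count of 3 over a group, the limit that a count of 0 allows, corresponds to 0.0507 to 0.0939 CPM, and covers counting error only. No change of Actl6b was readable at this depth. The summed level of the 12 neuron markers was 125 to 731 CPM per library, and 1 to 4 of the 12 averaged under 1 CPM in a group. That sum was 523 to 532 CPM in alphaKO, 693 to 731 CPM in fullKO and 498 to 524 CPM in WT at day 0. At day 4 it was lower in each, at 153 to 199, 125 to 126 and 139 to 145 CPM. The 8 neural progenitor markers rose in every genotype, from a sum of 46.6 to 66.7 CPM per library at day 0 to 245 to 688 CPM at day 4.

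Actl6a at day 0 had 191, 188 and 181 CPM in alphaKO, 247 and 233 CPM in fullKO, and 231.1, 230.7 and 221 CPM in WT. At day 2 it had 107, 119 and 106 CPM in alphaKO, 121, 119 and 112 CPM in fullKO, and 95.2, 103 and 104 CPM in WT. By day 4 Actl6a had 85.5, 83.7 and 84.8 CPM in alphaKO, 77.6, 78.2 and 71.3 CPM in fullKO, and 57.1, 57.8 and 59.7 CPM in WT. It declined in all genotypes, and at day 4 both knockouts lay wholly above WT. In WT it fell by 1.18 ± 0.05 on the log2 scale at day 2 and by 1.97 ± 0.05 at day 4 (edgeR adjusted p = 1.22e-25 and 9.77e-34). Against WT it was lower in alphaKO at day 0 (log2 -0.29 ± 0.05, edgeR adjusted p = 1.27e-06) and higher at day 4 by 0.54 ± 0.05 in alphaKO and 0.38 ± 0.05 in fullKO (adjusted p = 4.31e-12 and 5.04e-08). In alphaKO at day 2 it was higher by 0.13 ± 0.05 (edgeR adjusted p = 0.0278), a call lost without WT replicate 1 (0.09) or alphaKO replicate 2 (0.08), and without the filter on low counts (0.13, adjusted p = 0.0508). Mrpl47, whose exons it overlaps on the other strand, also fell in WT, by 1.01 ± 0.08 on the log2 scale at day 2 and by 1.53 ± 0.08 at day 4 (edgeR adjusted p = 2.89e-15 and 4.51e-21). Against WT, Mrpl47 was higher at day 2 by 0.23 ± 0.08 in alphaKO and by 0.31 ± 0.08 in fullKO (edgeR adjusted p = 0.0233 and 0.00163), where Actl6a was higher by 0.13 and 0.22. At day 4 the differences of Mrpl47 were 0.13 ± 0.09 in alphaKO and 0.07 ± 0.09 in fullKO (edgeR adjusted p = 0.238 and 0.58), and the part of its reads in the Actl6a values was not tested.

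Dpf1 and Dpf2 encode histone-reading subunits, Dpf1 being known from postmitotic neurons and Dpf2 from most cells. Dpf1 at day 0 had 15.1, 13.0 and 14.5 CPM in alphaKO, 16.5 and 17.6 CPM in fullKO, and 23.9, 22.8 and 22.0 CPM in WT. At day 2 it had 5.71, 4.42 and 4.80 CPM in alphaKO, 7.75, 6.72 and 6.37 CPM in fullKO, and 5.45, 3.79 and 3.12 CPM in WT. By day 4 Dpf1 had 15.6, 14.4 and 14.7 CPM in alphaKO, 6.84, 7.08 and 6.88 CPM in fullKO, and 6.89, 7.32 and 9.02 CPM in WT. WT was highest at day 0, fullKO at day 2 and alphaKO at day 4, each without overlap with any other group of its day. In WT Dpf1 fell by 2.47 ± 0.14 on the log2 scale at day 2 and at day 4 the difference from day 0 was -1.56 ± 0.12 (edgeR adjusted p = 1.13e-20 and 1.9e-15).

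Against WT, Dpf1 was lower at day 0 in alphaKO (log2 -0.69 ± 0.11, edgeR adjusted p = 2.67e-06) and in fullKO (log2 -0.43 ± 0.13, adjusted p = 0.00675). The fullKO call was lost without fullKO replicate 1 (-0.41), which leaves 1 library in that group. Dpf1 was higher than WT in fullKO at day 2 by 0.75 ± 0.15 (edgeR adjusted p = 6.28e-05) and in alphaKO at day 4 by 0.93 ± 0.13 (adjusted p = 3.07e-08). Of 12 neuron markers, 7 were higher and 3 lower in alphaKO than in WT at day 4, against 28.7% and 24.0% of all genes. Their median log2 fold change was 1.66, against 0.06 over all genes. The summed levels of these markers were 153 to 199 CPM in alphaKO, 125 to 126 CPM in fullKO and 139 to 145 CPM in WT. Their part in the Dpf1 value was not tested. Dpf2 had 103 to 109 CPM in alphaKO, 96.1 to 99.1 CPM in fullKO and 77.7 to 83.2 CPM in WT at day 4. In WT it fell by 0.23 ± 0.05 on the log2 scale (edgeR adjusted p = 3.06e-05), while at day 4 it was higher than WT by 0.39 ± 0.05 in alphaKO and 0.28 ± 0.05 in fullKO (edgeR adjusted p = 2.31e-09 and 3.32e-06).

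Set against WT day by day, the alphaKO cells had lower levels of several of these subunits at day 0 and higher levels of nearly all at day 4. In alphaKO at day 0, 1 of the 9 was higher and 4 lower, against 17.7% and 20.9% of all genes. At day 2, 5 were higher and 1 lower, against 19.9% and 20.3%, and leaving out any 1 library gave 4 to 6 calls. At day 4, 8 were higher and 0 lower, against 28.7% and 24.0%, and leaving out any 1 library gave 7 to 8 calls. The median log2 fold change of the 9 was -0.12, 0.13 and 0.39 on days 0, 2 and 4, against -0.03, 0.01 and 0.06 over all genes. The subunit not called at day 4 was Smarca4 (0.08 ± 0.04, edgeR adjusted p = 0.0899), though its libraries lay above those of WT. At day 4 the summed level of 8 primitive endoderm markers was 1333 to 1521 CPM in alphaKO, 885 to 1060 CPM in fullKO and 533 to 635 CPM in WT, and the part of such cells, or of the cells with pluripotency markers, in the day 4 values was not tested.

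In fullKO, 1 of the 9 was higher and 2 lower than WT at day 0, against 16.2% and 17.7% of all genes. At day 2, 3 were higher and 3 lower, against 23.8% in each direction, with Smarcc1 (-0.10) lost without WT replicate 2 (-0.08) or 3 (-0.08), or fullKO replicate 2 (-0.10) or 3 (-0.10). At day 4, 4 were higher (Smarcc2, Smarcd1, Actl6a and Dpf2) and 3 lower (Smarca2, Smarca4 and Smarcd3), against 25.1% and 24.5%, and leaving out any 1 library gave 5 to 7 calls. The median log2 fold change of the 9 was -0.01, 0.07 and 0.02 on days 0, 2 and 4, against -0.01, 0.02 and 0.02 over all genes.

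**Figure D3:**
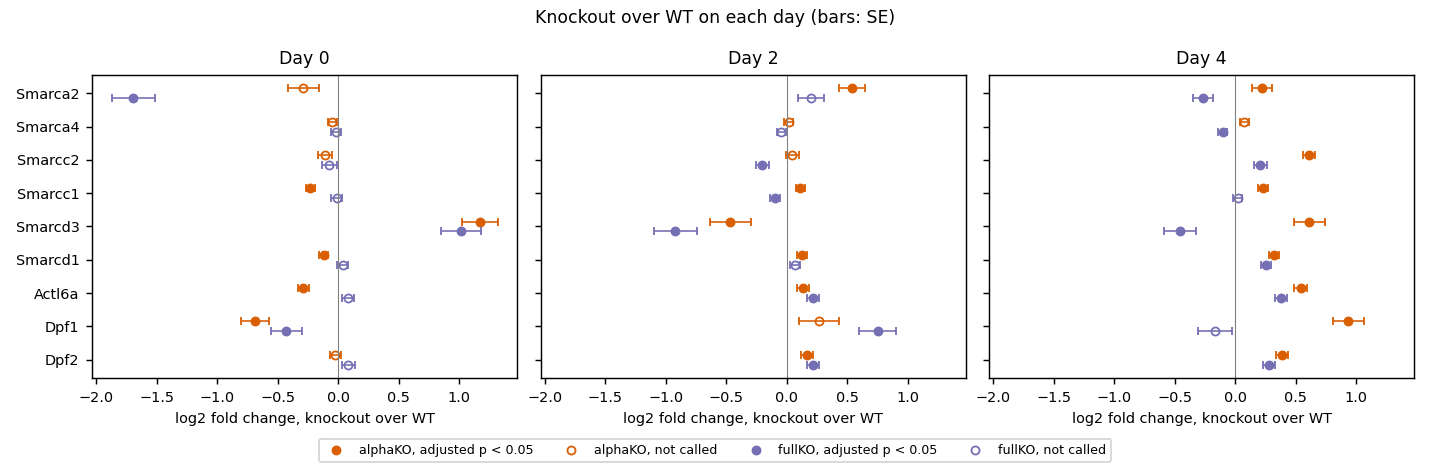
Log2 fold change of each tested subunit gene in alphaKO and fullKO over WT (horizontal axis) on days 0, 2 and 4, with SE bars; filled points have an adjusted p under 0.05 in edgeR's test and open points do not. Smarcd3 lies right of 0 in both knockouts at day 0 and left of it at day 2, and all 9 alphaKO points lie right of 0 at day 4.

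Compared directly, the knockouts differed most at day 4, where 0 of the 9 were higher and 7 lower in fullKO than in alphaKO, against 15.4% and 17.4% of all genes. The largest of these differences were in Dpf1 (-1.10 ± 0.13, edgeR adjusted p = 2.13e-09) and Smarcd3 (-1.07 ± 0.13, adjusted p = 4.92e-09), followed by Smarca2 (-0.49 ± 0.08, adjusted p = 6.78e-06) and Smarcc2 (-0.40 ± 0.05, adjusted p = 1.22e-08). The call of Actl6a (-0.16) was lost without fullKO replicate 3 (-0.12). At day 0, 3 were higher and 1 lower, against 14.6% and 14.4% of all genes, the lower one being Smarca2 (-1.40 ± 0.18, edgeR adjusted p = 4.69e-08) and the higher ones Actl6a (0.37), Smarcc1 (0.22) and Smarcd1 (0.16). The call of Smarcd1 was lost without fullKO replicate 1 (0.15) or 2 (0.14). At day 2, 1 was higher and 3 lower, against 12.3% and 13.0%. There the calls of Dpf1 (0.48) and Smarca2 (-0.34) were lost without alphaKO replicate 2 (0.41 and -0.28) or fullKO replicate 1 (0.39 and -0.30), and that of Smarca2 also without fullKO replicate 2 (-0.30).

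The change from day 0 itself was compared between each knockout and WT. In alphaKO the change to day 2 was more positive than in WT for 6 of the 9 and more negative for 1, against 17.5% and 14.8% of all genes. The change to day 4 was more positive for 7 and more negative for 1, against 24.2% and 19.7%. The exception on both days was Smarcd3. In fullKO the change to day 2 was more positive for 2 and more negative for 1, against 15.7% and 12.8%, and the change to day 4 for 5 and 1, against 19.5% and 15.7%, and again Smarcd3 was the 1.

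The balance within each pair was read as the share of the pair taken by the first gene, per kilobase of exon. Further relatives, such as Smarcd2 and Dpf3, were not part of these shares. Exon length covered all annotated transcripts of a gene, expressed or not, so the absolute shares depend on the annotation. Smarca2 took 0.552% ± 0.0818 in alphaKO, 0.204% ± 0.0222 in fullKO and 0.654% ± 0.0632 in WT at day 0 (SD), and 4.09% ± 0.251, 3.33% ± 0.254 and 3.70% ± 0.128 in the same groups at day 4. Smarcc2 took 12.6%, 11.3% and 11.7% of its pair at day 0 in alphaKO, fullKO and WT, and 31.1%, 28.3% and 25.8% at day 4. The stem cell paralog of each of these pairs was the more abundant one in every library, so the balance shifted and did not invert.

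Smarcd3 took 3.03% in alphaKO, 2.44% in fullKO and 1.25% in WT at day 0, with no overlap between groups. At day 2 its share was 1.45% in alphaKO, 1.10% in fullKO and 2.16% in WT, and at day 4 it was 8.10%, 4.23% and 6.78% in those groups. The share of Smarcd3 was thus lower at day 2 than at day 0 in both knockouts and higher in WT. The share of Dpf1 was 15.6% in alphaKO, 17.1% in fullKO and 22.7% in WT at day 0, and 14.6%, 7.92% and 10.4% at day 4. The highest share of any of these 4 first genes was 31.3%, for Smarcc2 in 1 alphaKO library at day 4. Actl6b took at most 0.344% of its pair.

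**Figure D4:**
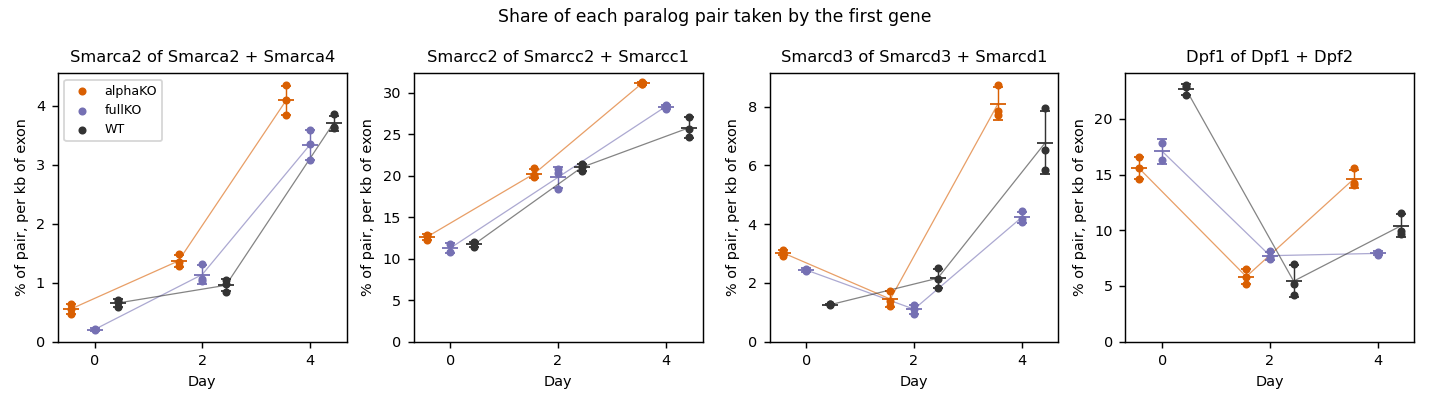
Share of each paralog pair taken by the first gene, in percent of the pair per kilobase of exon (vertical axes, each starting at 0), on days 0, 2 and 4 in alphaKO, fullKO and WT; points are libraries and bars mean ± SD. All shares stay at or under 31.3%, and the Smarcd3 share of both knockouts is above WT at day 0 and below it at day 2.

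Whether the log2 ratio within a pair differed between genotypes over the 3 days together was asked with a two-sided exact permutation of genotype within days, in 15 tests with Benjamini-Hochberg adjustment. With 3 against 3 libraries a single day cannot go below a p of 0.1, so single days have no test here. For 3 pairs the ratio was lower in fullKO than in alphaKO: Smarca2 over Smarca4 at -0.67 and Smarcd3 over Smarcd1 at -0.57 (exact p = 0.0005, adjusted 0.00375 for each), and Smarcc2 over Smarcc1 at -0.14 (exact p = 0.00375, adjusted 0.0187). On days 0, 2 and 4 these differences were -1.42, -0.28 and -0.31 for Smarca2 over Smarca4. They were -0.32, -0.39 and -0.99 for Smarcd3 over Smarcd1, and -0.18, -0.04 and -0.19 for Smarcc2 over Smarcc1. Libraries of the 2 knockouts overlapped at day 2 for all 3 pairs, and at days 0 and 4 for none, with 2 fullKO libraries at day 0. Such a mean over days cannot register differences that change sign between days. No mean over days against WT passed the adjusted threshold, which does not show that the ratios were alike. The nearest was Smarcc2 over Smarcc1 in alphaKO, higher by 0.14 (exact p = 0.0253, adjusted 0.0947), followed by Smarca2 over Smarca4 in fullKO, at -0.53 (exact p = 0.0688, adjusted 0.206). The single days behind that value, days 0, 2 and 4, were -1.68, 0.25 and -0.16, with no overlap of libraries at days 0 and 4. For Smarcd3 over Smarcd1 in fullKO against WT they were 0.97, -0.98 and -0.71, with no overlap on any day. For Dpf1 over Dpf2 they were -0.67, 0.13 and 0.56 in alphaKO against WT, with no overlap at days 0 and 4, and -0.51, 0.57 and -0.43 in fullKO against WT, with no overlap on any day. Their means over days, in which opposite signs cancel, were 0.01, -0.12 and -0.13 (alphaKO against WT, fullKO against WT, fullKO against alphaKO), with adjusted p of 0.953, 0.573 and 0.573 in the exact permutation test.

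The remaining subunits of the complex were followed as a list of 20 genes, all of which passed the filter. In WT, 9 were higher and 10 lower at day 2, against 36.7% and 34.0% of all genes, and 8 higher and 9 lower at day 4, against 40.7% and 36.7%. In alphaKO against WT, 3 were higher and 6 lower at day 0 (17.7% and 20.9% of all genes), 5 and 0 at day 2 (19.9% and 20.3%), and 14 and 1 at day 4 (28.7% and 24.0%). In fullKO against WT they were 3 and 4 at day 0 (16.2% and 17.7%), 5 and 6 at day 2 (23.8% in each direction), and 7 and 1 at day 4 (25.1% and 24.5%). The fullKO counts of days 0 and 2 are thus near the shares of all genes. The 11 calls in fullKO at day 2 became 6 without WT replicate 3. The median log2 fold change of the 20 at day 4 was 0.31 in alphaKO and 0.13 in fullKO, against 0.06 and 0.02 over all genes.

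Dpf3, a further relative of Dpf1 and Dpf2, had 7.81, 7.18 and 7.46 CPM in alphaKO, 4.75, 3.51 and 2.76 CPM in fullKO, and 1.52, 1.19 and 2.18 CPM in WT at day 4. The 3 groups did not overlap, and the log2 fold changes against WT were 2.18 ± 0.25 in alphaKO and 1.16 ± 0.26 in fullKO (edgeR adjusted p = 2.4e-10 and 0.000191). Bcl11a, a zinc finger protein found with the complex, had 29.5, 34.2 and 33.0 CPM in alphaKO, 6.49, 6.04 and 5.92 CPM in fullKO, and 8.70, 6.49 and 7.81 CPM in WT at day 4 (alphaKO against WT, log2 2.08 ± 0.15, edgeR adjusted p = 4.23e-16). At day 0 Bcl11a was lower in both knockouts, with means of 3.29 CPM in alphaKO, 1.24 CPM in fullKO and 10.3 CPM in WT. The log2 differences from WT were -1.63 ± 0.18 in alphaKO and -3.03 ± 0.26 in fullKO (edgeR adjusted p = 3.4e-10 and 1.5e-13). Bicral, a subunit of the non-canonical form of the complex, showed the largest decline of the list in WT at day 4, with 17.8, 18.2 and 18.7 CPM at day 4 against 99.1, 104 and 105 CPM at day 0 (log2 -2.49 ± 0.06, edgeR adjusted p = 2.94e-34). At day 2 Bicral stood at 34.7 to 36.8 CPM in alphaKO, 60.7 to 64.8 CPM in fullKO and 17.4 to 18.5 CPM in WT, with no overlap between groups.

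The 2 subunits with the widest range of group means were Smarca2 (4.38 on the log2 CPM scale) and Smarcd3 (2.73), against 0.18 for Smarca4, the narrowest. Among 12024 protein-coding genes that averaged 5 CPM or more in some group, the genes whose log2 CPM followed Smarca2 most closely over the 26 libraries were Col4a1 (Pearson r = 0.991) and Col4a2 (r = 0.981), collagens of the basement membrane, and Eid1 (r = 0.981). Col4a1 averaged 2501 CPM in alphaKO, 1828 CPM in fullKO and 2322 CPM in WT at day 4, and 240 CPM, 71.9 CPM and 315 CPM in those groups at day 0. For Smarcd3 they were Ddah2 (r = 0.918), Plxnb2 (r = 0.914) and Laptm4b (r = 0.91). Ddah2 averaged 96.1 CPM in alphaKO, 90.9 CPM in fullKO and 58.0 CPM in WT at day 0. These correlations describe libraries that share groups, scaling and depth, and the genes were picked as the highest of all compared.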

How the data were processed

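Stranded mRNA-seq libraries (KAPA kit, RNeasy extraction, per the labels) of 26 samples were analysed from the read counts per gene that the authors deposited; per the submitters' processing notes, FastQC, STAR 2.7.1a and mm10 were used, while the counting tool and its strand setting are not given there or in the labels. Of 55471 genes, 55230 matched GENCODE M21 by Ensembl ID. Counts were filtered with filterByExpr (18412 genes kept), scaled by TMM and fitted with edgeR 4.0.16 in R 4.3.3: the quasi-likelihood fit held 9 group means, 17 residual degrees of freedom and 15 comparisons, with Benjamini-Hochberg adjustment over all genes tested. The script was tested on simulated counts first. CPM values are counts per 1000000 after TMM scaling; ± is SE for log2 fold changes and SD otherwise. Paralog ratios used raw counts with 0.5 added. Shares divided counts by the GENCODE exon length of each gene, the union of the exons of all its transcripts. Intervals and limits from counts cover counting error only.

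All 10 subunit genes are described in every group. Of the other subunits, up to 4 called genes with the largest change per comparison could be named, and for the 2 subunits with the widest range, the 3 most similar genes. The members, gene lists and tests were chosen with earlier results of these data known. Replicate numbers are shared between groups in the labels, but deviations of same-numbered libraries from their group means correlated between -0.0409 and 0.0466, so numbers were not taken to pair samples. Replicates of a group differed by more than counting noise. Alternatives were relative log expression scaling, DESeq2 1.42.0, no filter or a mean of at least 1 CPM, the replicate number as a block, fits of the compared groups alone, another added count for ratios, and leaving out each library. Promoter windows are from RefSeq, GRCm38.p6.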

Additional observations from a re-analysis of the deposited data

Results flagged for a closer look

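For 24 of 36 tests of the subunit genes, the change from day 0 differed between a knockout and WT in edgeR's quasi-likelihood test at an adjusted p under 0.05. Of all genes, the change was more positive in 17.5% and more negative in 14.8% for alphaKO at day 2, and in 24.2% and 19.7% for alphaKO at day 4. For fullKO these shares were 15.7% and 12.8% at day 2, and 19.5% and 15.7% at day 4. Values are differences in log2 change, knockout minus WT. For alphaKO at day 2 they were -1.64 for Smarcd3, 0.95 for Dpf1, 0.83 for Smarca2, 0.42 for Actl6a, 0.34 for Smarcc1, 0.25 for Smarcd1 and 0.19 for Dpf2. For alphaKO at day 4 they were 1.62 for Dpf1, 0.83 for Actl6a, 0.72 for Smarcc2, -0.56 for Smarcd3, 0.51 for Smarca2, 0.46 for Smarcc1, 0.44 for Smarcd1 and 0.41 for Dpf2. For fullKO at day 2 they were -1.93 for Smarcd3, 1.89 for Smarca2 and 1.18 for Dpf1. For fullKO at day 4 they were -1.47 for Smarcd3, 1.43 for Smarca2, 0.30 for Actl6a, 0.28 for Smarcc2, 0.22 for Smarcd1 and 0.20 for Dpf2.

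All 24 share their day 0 libraries with the direct comparisons in the report. Smarcd3 in alphaKO at day 4 lost its call without WT day 4 replicate 1 (-0.44), and Smarcc2 in fullKO at day 4 without fullKO day 0 replicate 2 (0.22). Dpf2 lost its call in alphaKO at day 2 without any of 6 libraries (0.16 to 0.18), and in fullKO at day 4 without any of 4 (0.17 to 0.19). Both of these Dpf2 calls were also lost in edgeR without the filter on low counts (0.19, adjusted p = 0.0846, in alphaKO and 0.19, adjusted p = 0.11, in fullKO). Groups of 2 or 3 libraries are too small to test single libraries for standing apart.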

How the results depend on the processing

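The number of subunit genes called stayed within 1.5 times its main value in all 200 recomputations, and the number of all genes called in 199 of 200; the exception was fullKO against alphaKO at day 0, with 5344 genes called and 3547 to 5094 on leaving out 1 library. Of 1800 recomputed subunit changes, 1714 kept direction and call, 57 lost the call, 17 gained it and 12 changed sign. Signs changed only for uncalled values near 0 when 1 library was left out: Smarcd3 in WT at day 2 (-0.0017 to 0.208), Dpf2 in alphaKO against WT at day 0 (-0.0386 to 0.001), Smarca4 in fullKO against WT (-0.0699 to 0.0085) and against alphaKO (-0.0202 to 0.0555) at day 0, Smarcc2 in fullKO against alphaKO at day 0 (-0.0645 to 0.102), Smarcc1 in fullKO against WT at day 4 (-0.0186 to 0.0677), and the differences in change in fullKO of Smarca4 (-0.0629 to 0.0155) and Smarcd1 (-0.0043 to 0.0541) at day 2 and Smarcc1 (-0.0041 to 0.0822) at day 4. Among ratios, signs changed for Smarcc2/Smarcc1 in fullKO against WT (-0.0169 to 0.0275), Dpf1/Dpf2 in alphaKO against WT (-0.0517 to 0.0786) and Actl6b/Actl6a in alphaKO against WT (-0.47 to 0.142 leaving out 1 library, 0.136 with 0.1 added). With 2 added to each count, Actl6b/Actl6a in fullKO against WT was -0.587 (exact permutation, adjusted p = 0.0441), with counts at the detection limit on the Actl6b side. The replicate block changed 1 subunit call, Smarca4 in WT at day 2 (-0.08, adjusted p = 0.0544, edgeR), so 7 in place of 8 were called. Counts of other subunits moved by over 1.5 times in fullKO against WT at day 2 (11, or 6 without WT replicate 3), in fullKO against alphaKO at day 2 (8, or 5 without fullKO replicate 2) and in the fullKO difference in change at day 4 (7, or 11 with a mean of at least 1 CPM). The cause of these moves was not tested. Leaving out a fullKO day 0 library leaves 1, assumed to vary like the other groups. Depth limits Actl6b, and the labels do not say whether each knockout is 1 clone, so genotype and clone cannot be told apart.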
